A study of Mus musculus with 2 samples.

Results

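Myosin light chains and the kinase of the skeletal regulatory chain were followed across both libraries of the series. They were 10 gene symbols, Myl1, Mylpf, Myl2, Myl3, Myl4, Myl6, Myl6b, Myl12a, Myl12b and Mylk2, taken by symbol from the transcript tables, of 17859 annotated mouse genes with a count in at least 1 library. All 10 had counts, under 11 gene identifiers, because Myl12b has a second identifier. Together they held 14855 counts on 208 transcript models in replicate 1 and 19987 counts on 234 models in replicate 2. That was 1.49% of all counts on annotated mouse genes in replicate 1 (exact 95% interval 1.46 to 1.51) and 1.95% in replicate 2 (1.92 to 1.97).

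The tissue was gastrocnemius, the large fast muscle of the calf, from male mice of the hybrid strain B6CASTF1/J aged 4 days, and the labels give no treatment. Long-read RNA sequencing, in which 1 read can span a whole transcript, was run on 2 µg of total RNA for each of 2 replicates, so the series has 1 group and no contrast between conditions. The labels number the libraries as biological replicates 1 and 2. They give separate biosamples but the same donor entry, so n = 2 counts libraries here, and the spread between them may be technical. The tables held 1066347 counts in replicate 1 and 1100253 in replicate 2, of which 998659 and 1026257 lay on annotated mouse genes. Levels are given as CPM, counts scaled to the same total of annotated gene counts in each library.

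Markers of skeletal muscle led, with those of other tissue beside them. The 6 markers listed for fast fibres summed to 134102 CPM in replicate 1 and 135127 in replicate 2. Acta1 (51109 and 63884 CPM) and Ckm (23614 and 27653 CPM) made up much of these sums and are not confined to fast fibres. Acta1, Ckm, Tnnc2 and Tnnt3 were higher in replicate 2, and Atp2a1 (46440 and 25893 CPM) and Tnni2 were lower. The 5 slow fibre markers summed to 2056 and 2471 CPM. The cardiac genes Tnni3, Nppa, Nppb and Myl7 were at 0 in both libraries, and of the other cardiac markers Myh6 had 14 and 9 counts and Mybpc3 had 1 and 0. Myl2, Myl3 and Myl4 are also chains of heart muscle. The 6 smooth muscle and mural markers summed to 1100 and 1120 CPM, and the 5 fibroblast markers to 36798 and 24766 CPM. The 5 epidermal markers summed to 4 counts in replicate 1 and 869 in replicate 2. Krt1, Krt5, Krt14 and Lor were at 0 in replicate 1, so epidermal RNA moved with the library, and its part in the differences below was not tested. In bulk tissue, fewer cells of a type and less RNA per cell cannot be told apart.

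Each myosin motor carries an essential and a regulatory light chain on the lever arm of every heavy chain, where they stiffen the lever and tune its stroke. Fast muscle uses Myl1 (essential) and Mylpf (regulatory), slow and ventricular muscle Myl3 and Myl2, and embryonic muscle and the atrium Myl4. Myl6, Myl12a and Myl12b are the essential and regulatory chains of smooth muscle and non-muscle myosin. The regulatory chain is phosphorylated by light chain kinases that need calcium and calmodulin, and Mylk2 is the skeletal muscle enzyme. Myl1 makes its long and short proteins, known as LC1f and LC3f, from separate promoters.

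The sequences that tell the Myl1 proteins apart are the coding bases that each form does not share with the other. Both are printed from the GENCODE M21 transcripts (mm10, chr1, minus strand, exons 1 and 2), in lower case for the first exon and in capitals for the small second exon. The long form has 114 coding bases in its first exon, which ends at chr1:66944792, and the 28-base exon at chr1:66934246-66934273. The short form has only its start codon in the first exon (chr1:66935276-66935354) and then the 25-base exon at chr1:66934518-66934542.
Myl1 long form: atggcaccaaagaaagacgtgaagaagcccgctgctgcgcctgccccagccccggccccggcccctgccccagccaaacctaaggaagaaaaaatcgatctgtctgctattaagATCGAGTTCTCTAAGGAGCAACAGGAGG
Myl1 short form: atgTCCTTCAGTGCTGACCAGATTGCCG
The long stretch holds 47 whole codons and the short one 9, and both leave 1 base over, so the reading frame is the same in the shared exons that follow. Of the 47 codons, 11 were GCN, 9 were CCN and 9 were AAA or AAG. These encode the N-terminal extension of the long protein, which is known to contact actin.

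Levels are given first, by role. Myl1 (ENSMUSG00000061816.15, chr1:66924295-66945404), the fast essential chain, stood at 6327 CPM in replicate 1 and 8642 CPM in replicate 2, 7485 ± 1637 (mean ± SD, n = 2 libraries). Mylpf (ENSMUSG00000030672.12, chr7:127208890-127214298), the fast regulatory chain, stood at 7262 and 8924 CPM, 8093 ± 1175. The fast pair was the highest of the group in each library.

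The embryonic and slow chains lay far below. Myl4 (ENSMUSG00000061086.12, chr11:104550663-104595753) had 253 and 464 CPM, from 253 and 476 counts. Myl3 (ENSMUSG00000059741.13, chr9:110741861-110769798), the slow essential chain, had 160 and 242 CPM. Myl2 (ENSMUSG00000013936.12, chr5:122100951-122113472), the slow regulatory chain, had 73.1 and 90.6 CPM. Each of these 3 genes was higher in replicate 2. Myl6b (ENSMUSG00000039824.4, chr10:128494157-128498685), an essential chain of slow and non-muscle myosin, had 2 and 3 counts, too few to compare.

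Among the chains of non-muscle and smooth muscle myosin, Myl12a (ENSMUSG00000024048.15, chr17:70993656-71002878) had 540 and 702 CPM. Myl6 (ENSMUSG00000090841.2, chr10:128490860-128494145) had 171 and 309 CPM. Myl12b (chr17:70973133-70990890) had 59.1 and 84.8 CPM over both of its identifiers. Mylk2 (ENSMUSG00000027470.9, chr2:152911352-152923068), the kinase, had 27.0 and 15.6 CPM, and it was the only gene of the group with its higher value in replicate 1.

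**Figure D1:**
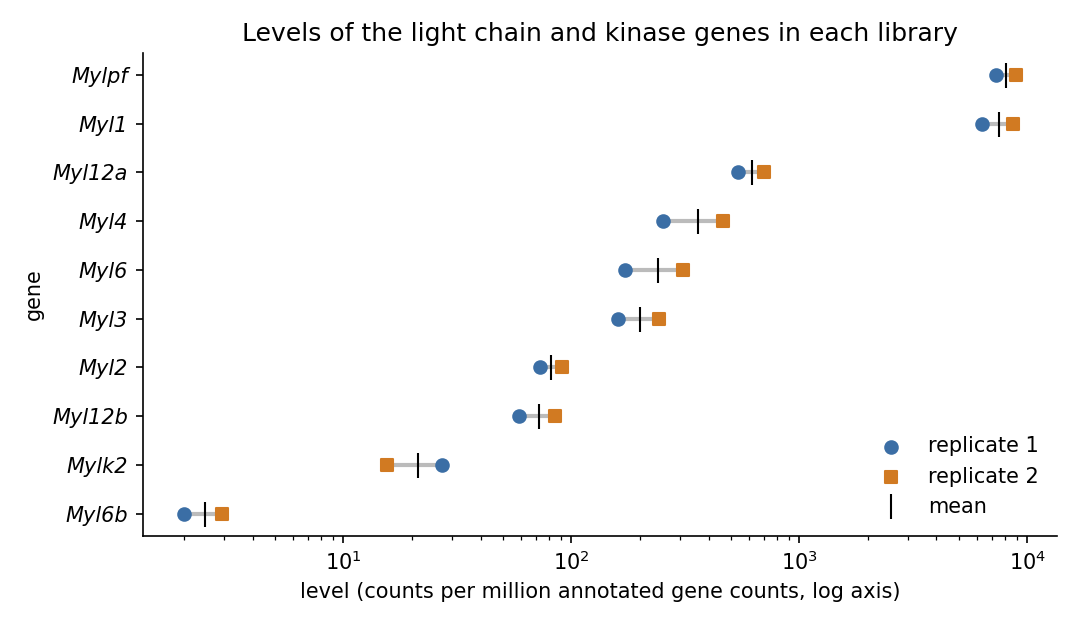
Level of each gene in CPM (log axis), with a circle for replicate 1, a square for replicate 2 and a bar for their mean. Mylpf and Myl1 lie at 6327 or higher in both libraries, the slow and embryonic chains at 464 or lower, and Mylk2 and Myl6b at 27.0 or lower.

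Genes were ordered on a scale divided by length, CPM per base of the leading annotated transcript, rescaled so that all genes keep the same sum. On this scale Mylpf (18108 ± 1847) and Myl1 (15951 ± 2806) came first, and their ranges overlapped. Myl4 (679 ± 255), Myl6 (615 ± 225) and Myl12a (549 ± 77.6) followed, also with overlapping ranges. Myl3 (366 ± 89.6), Myl2 (212 ± 22.9), Myl12b (49.4 ± 13.7) and Mylk2 (12.5 ± 5.26) came next, and none of their ranges overlapped. Myl6b had no count on an annotated transcript and so no value. With the longest annotated transcript detected in place of the leading one, Myl6 stood at 145 ± 53.5, below Myl3 and Myl2, because its longest detected model is the single-exon transcript Myl6-209.

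Shares within the family were close between the libraries. These are shares of counts, not divided by length. The sarcomeric essential chains (Myl1, Myl3, Myl4 and Myl6b) held 6734 of 14059 essential and sarcomeric regulatory counts in replicate 1, 47.9% (exact 95% interval 47.1 to 48.7). In replicate 2 they held 9596 of 18847, 50.9% (50.2 to 51.6). Counts of essential and regulatory chains were thus nearly equal in number in each library.

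Within the essential chains, the Myl1 share was 93.8% (93.2 to 94.4) in replicate 1 and 92.4% (91.9 to 92.9) in replicate 2. Myl4, the embryonic chain, held 3.76% (3.32 to 4.24) and 4.96% (4.53 to 5.41), and Myl3 with Myl6b held 2.41% (2.05 to 2.80) and 2.62% (2.31 to 2.95). Of Mylpf and Myl2 counts, Myl2 held 0.997% (0.782 to 1.25) and 1.01% (0.812 to 1.23). The slow regulatory share thus moved by less than its counting error, and the intervals of Myl3 with Myl6b overlapped. Those of Myl4, of Myl1 and of the essential chains as a whole did not overlap between the libraries. For comparison, the slow heavy chain Myh7 held 7.75% (7.27 to 8.25) and 10.9% (10.2 to 11.6) of the counts on 6 sarcomeric heavy chain genes. Without ISM and Genomic transcripts its share was 13.6% (12.7 to 14.5) and 21.8% (20.3 to 23.4). Those heavy chain transcripts are 5912 to 6149 bases long, so this share and those of the light chains rest on reads of very different lengths.

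Library was then compared with library. This compares 2 libraries and not 2 conditions, and the test holds counting error only. Of 10 member identifiers with at least 10 counts in sum, 6 were called by Fisher's exact test, taken two-sided, with Benjamini-Hochberg adjustment over all 11027 genes tested. All 6 were higher in replicate 2: Mylpf, Myl1, Myl3, Myl4, Myl6 and Myl12a. Among all genes tested, 5.25% were called higher in replicate 2 and 4.49% lower. The median log2 ratio of replicate 2 over replicate 1 was 0.41 over the members tested and -0.04 over all genes tested.

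The called genes differed in size. Myl4 had a log2 ratio of 0.87 (95% interval 0.65 to 1.10, exact test, adjusted p = 2.57e-13), which is 1.83-fold. Myl6 had a log2 ratio of 0.85 (0.58 to 1.13, exact test, adjusted p = 2.00e-08). Myl3 followed at 0.59 (0.30 to 0.89, exact test, adjusted p = 0.00127), a gene of the slow fibres. Of the 5 slow fibre markers, the troponin genes Tnnc1 (log2 ratio 0.93), Tnni1 (0.71) and Tnnt1 (0.97) were called higher in replicate 2, and Myh7 (-0.27) and the calcium pump gene Atp2a2 (-0.57) were called lower. Their part in the Myl3 and Myl4 differences was not tested. The abundant fast chains differed less, with Myl1 at 0.45 (0.40 to 0.50, exact test, adjusted p = 1.39e-78) and Mylpf at 0.30 (0.25 to 0.34, exact test, adjusted p = 4.17e-37). The fast chains rest on the most counts, 6319 or more in each library, which gives narrow intervals. Myl12a had 0.38 (0.22 to 0.54, exact test, adjusted p = 0.000158).

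The other genes tested did not pass. Myl12b under its first identifier (ENSMUSG00000034868.9) had 48 and 78 counts, a log2 ratio of 0.66 (0.12 to 1.21, exact test, adjusted p = 0.0960). Myl2 had 73 and 93 counts, a ratio of 0.31 (-0.15 to 0.77, exact test, adjusted p = 0.50). Mylk2, with 27 and 16 counts, had a log2 ratio of -0.78 (-1.78 to 0.15, exact test, adjusted p = 0.340). The Myl2 interval holds no difference as well as differences of the size of several called genes. The Mylk2 interval holds no difference and lies mostly below it, on the other side from the called genes.

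Length moved with the difference between the libraries. Among 929 genes whose leading annotated transcript was under 1 kb, the median log2 ratio was 0.43 (quartiles 0.12 and 0.71) and 17.7% were called higher. Among 4697 genes of 3 kb and over, the median was -0.24 and 7.71% were called lower. Myl1 (803 bases) lay above 51.8% of the short genes and Mylpf (766 bases) above 38.9%, so both sat near the middle of their length class. Myl2 (662 bases) lay above 39.4% and Myl3 (937 bases) above 66.3%. Myl4 (900 bases) lay above 83.2% and Myl6 (665 bases) above 81.7%, towards the upper end of the class. Among genes of 1 to 2 kb, Myl12a lay above 61.3%. Among genes of 2 to 3 kb, Myl12b lay above 90.7% and Mylk2 above 6.65%, and their log2 ratios were the farthest of the group from the median of their class, with differences of 0.69 and -0.74 on the log2 scale. The part of length in these differences was not tested.

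**Figure D2:**
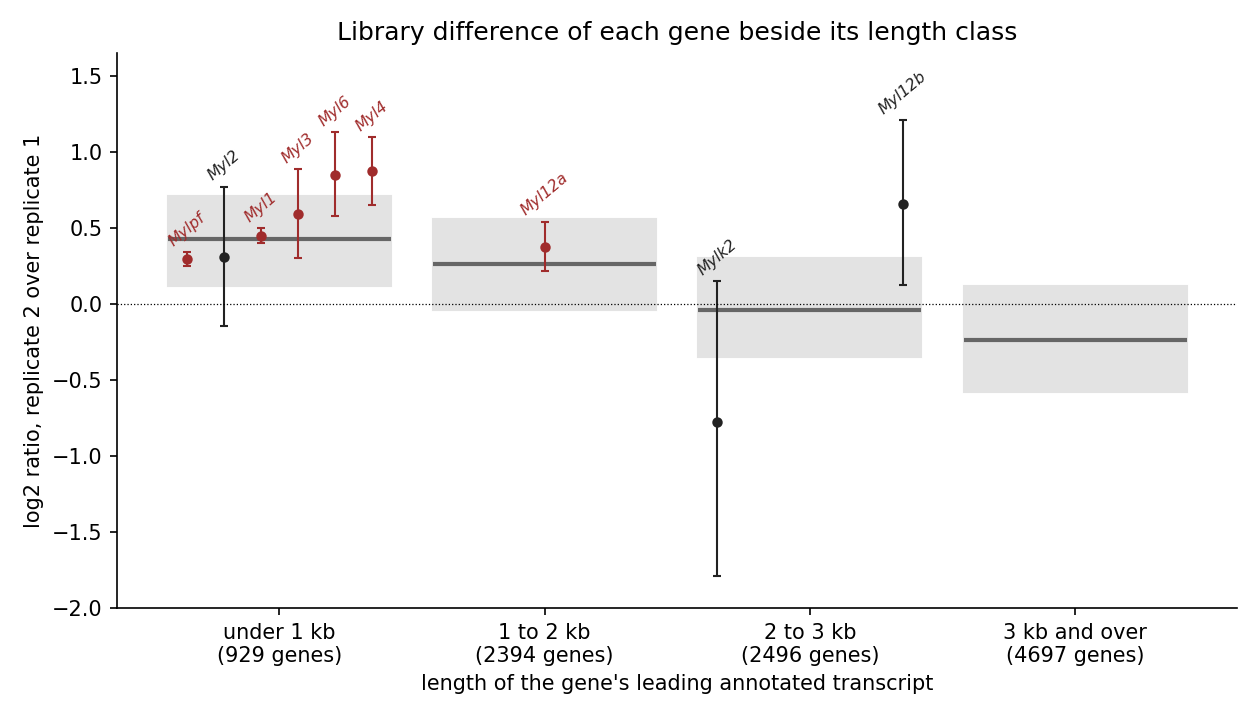
Log2 ratio of replicate 2 over replicate 1 for each gene with a length (points with exact 95% intervals, red where called), placed by the length of the leading annotated transcript. Grey boxes span the quartiles and grey lines the median of all genes tested in the length class, and Myl1, Mylpf, Myl2 and Myl3 lie inside the box of genes under 1 kb while Myl4 and Myl6 lie above it.

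A preset biological spread left few of these calls. With edgeR's exact test and a preset biological coefficient of variation of 0.1, Myl4 (adjusted p = 0.0187) and Myl6 (adjusted p = 0.0397) were called, 2 of 10, against 1.56% of all genes. With 0.2, edgeR's exact test called 0 of 10, against 0.508% of all genes, and 1 of 10 (Myl4) had an unadjusted p under 0.05.

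Myl1 transcripts fell into both annotated forms in both libraries, with the short form ahead. By introns that only annotated transcripts of one start hold, 1922 counts belonged to the long form and 3703 to the short form in replicate 1, and 2304 and 5613 in replicate 2. The long form was thus 34.2% (exact 95% interval 32.9 to 35.4) and 29.1% (28.1 to 30.1) of the assigned counts, 31.6 ± 3.58% (n = 2 libraries). No count held introns of both starts, which position largely sets, because the long form's intron at chr1:66934274-66944791 spans all introns of the short form. A further 694 and 952 counts held neither, most of them partial. In CPM, the short form stood at 3708 and 5469, a log2 difference of 0.56 (95% interval 0.50 to 0.62). The long form had 1925 and 2245 CPM, a log2 difference of 0.22 (0.13 to 0.31). The short form thus differed more between the libraries than the long one. These levels per start were not tested on their own. The long form is also the longer transcript, with a first exon of 352 bases against 79 in the short form. Among all genes tested, the median log2 ratio was 0.43 under 1 kb and 0.26 at 1 to 2 kb. The part of transcript length in the difference between the forms was not tested.

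The small exons gave the same picture under a test over the whole table. Each internal exon with at least 20 counts per library was tested for inclusion against skipping, 17111 exons in all, of which 0.0409% (7 exons) were called. The 28-base and 25-base exons of Myl1 were 2 of those 7, and since nearly every read holds 1 or the other they are a single choice. The 28-base exon was held by 34.0% of 5856 counts in replicate 1 (32.8 to 35.2) and 29.4% of 8228 in replicate 2 (28.4 to 30.3). The 25-base exon was held by 64.9% of 5728 counts (63.7 to 66.1) and 69.7% of 8082 (68.6 to 70.7). Each had an adjusted p of 3.57e-05 by the exact test. The shift was a few percent of the reads, and the short form led in both libraries. The part of transcript length in this shift was not tested.

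Reads that broke the choice were rare but present in both libraries. Of 5668 and 7966 counts that held a small exon or spliced across both, 61 and 107 held the 25-base exon followed by the 28-base exon, 1.08% (0.824 to 1.38) and 1.34% (1.10 to 1.62). Such a chain has 56 coding bases from the short form's start codon to the shared exons and leaves 2 bases over, against 1 in either main form. Another 22 and 28 counts, 0.388% and 0.351%, held neither. Nearly all other counts held exactly 1 of the small exons.

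**Figure D3:**
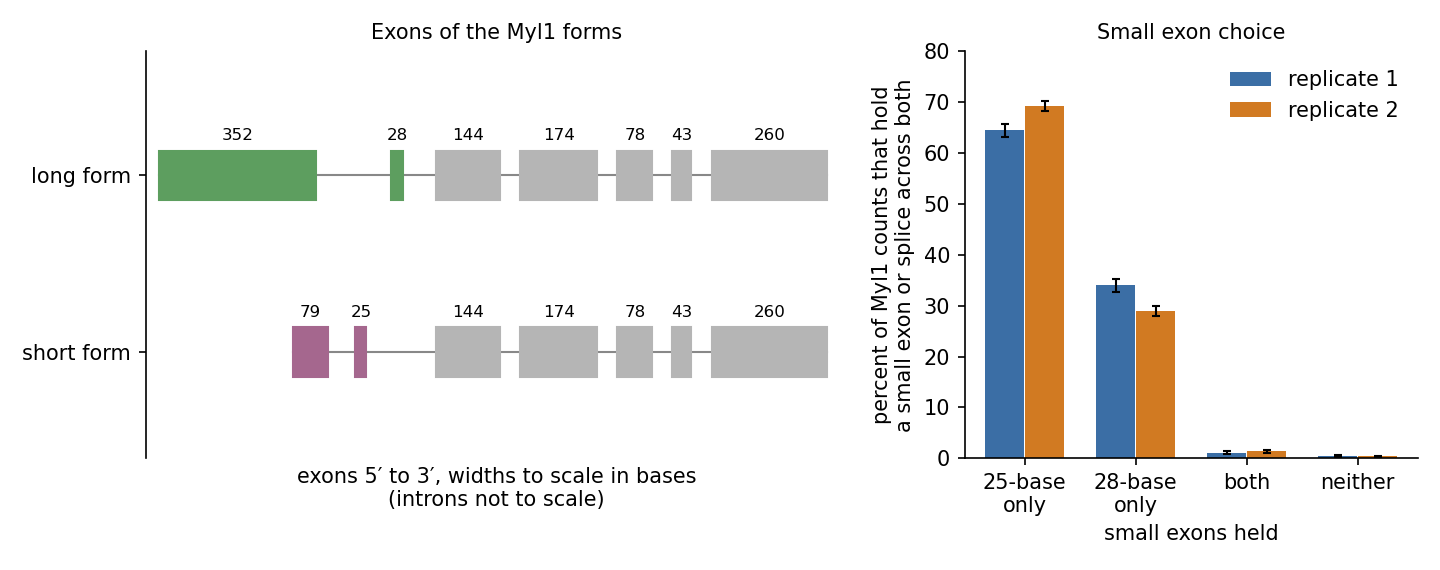
Left, exons of the long and short Myl1 forms with their lengths in bases, own exons in colour and shared exons in grey, with introns not to scale. Right, percent of Myl1 counts that hold the 25-base exon, the 28-base exon, both or neither in each library, with exact 95% intervals, where the 25-base exon leads at 64.5% and 69.3%.

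Among whole intron chains, the annotated short transcript Myl1-202 held 3546 and 5347 counts, 56.1% and 60.3% of the gene. The long transcript Myl1-201 held 1848 and 2171, 29.2% and 24.5%. The only other chain at 2% or more was a partial one of 3 introns that begins in the 174-base exon, with 304 and 451 counts. Outside the annotation the gene had 109 spliced chains, 43 of them in both libraries, and the shared ones held 315 of 348 such counts in replicate 1 and 543 of 589 in replicate 2. A further intron upstream, in the first exon region of the long form (chr1:66945011-66945290), is annotated and had 22 and 49 counts. These are the only long-form counts under the rule of alternative first introns described below.

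Mylpf was the plainest gene of the group. Its annotated transcript Mylpf-201 held 6969 of 7252 counts (96.1%, exact 95% interval 95.6 to 96.5) and 8836 of 9158 (96.5%, 96.1 to 96.9). None of its 3 exons tested lay between 5 and 95% inclusion. Myl2-201 held 60 and 83 counts (82.2% and 89.2%), and Myl3-201 held 136 and 213 (85.0% and 85.9%). Their remaining chains at 2% or more were partial or unspliced ones of 0 to 15 counts.

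Exon plans were shared within each class of chain. Myl1, Myl3, Myl4, Myl6 and Myl6b each had exons of 174 and 78 bases in a row. Before these lay an exon of 144 bases (Myl1, Myl6, Myl6b) or 150 bases (Myl3, Myl4). A 28-base exon preceded it in the long Myl1 form and in the other genes named. Mylpf and Myl2 shared exons of 76, 105, 79 and 49 bases. Between Mylpf and Myl2 the 76-base exons had 73.7% identical bases, the 105-base exons 72.4% and the 49-base exons 63.3%. In Myl2-201 both exon 1 and exon 5 have 79 bases, so no identity is given for that length. The 2 non-muscle regulatory chains Myl12a and Myl12b shared exons of 199 and 162 bases.

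Myl4 stood apart by how few of its counts lay on whole annotated chains. Known transcripts made up 53.4% (135 of 253) in replicate 1 and 53.8% (256 of 476) in replicate 2, against 72.5% and 75.4% over all annotated genes. ISM transcripts, which match only a part of an annotated intron chain, held 37.9% and 40.1%, against 9.74% and 9.33% of all counts. The leading annotated chains were Myl4-202 with 95 and 155 counts and Myl4-203, which has an extra upstream intron, with 40 and 100. A single partial chain of 3 introns held 83 counts (32.8%, 27.1 to 39.0) and 177 counts (37.2%, 32.8 to 41.7), near the count of Myl4-202. A chain outside the annotation with an upstream first intron (chr11:104550614-104577420) added 8 and 12 counts.

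**Figure D4:**
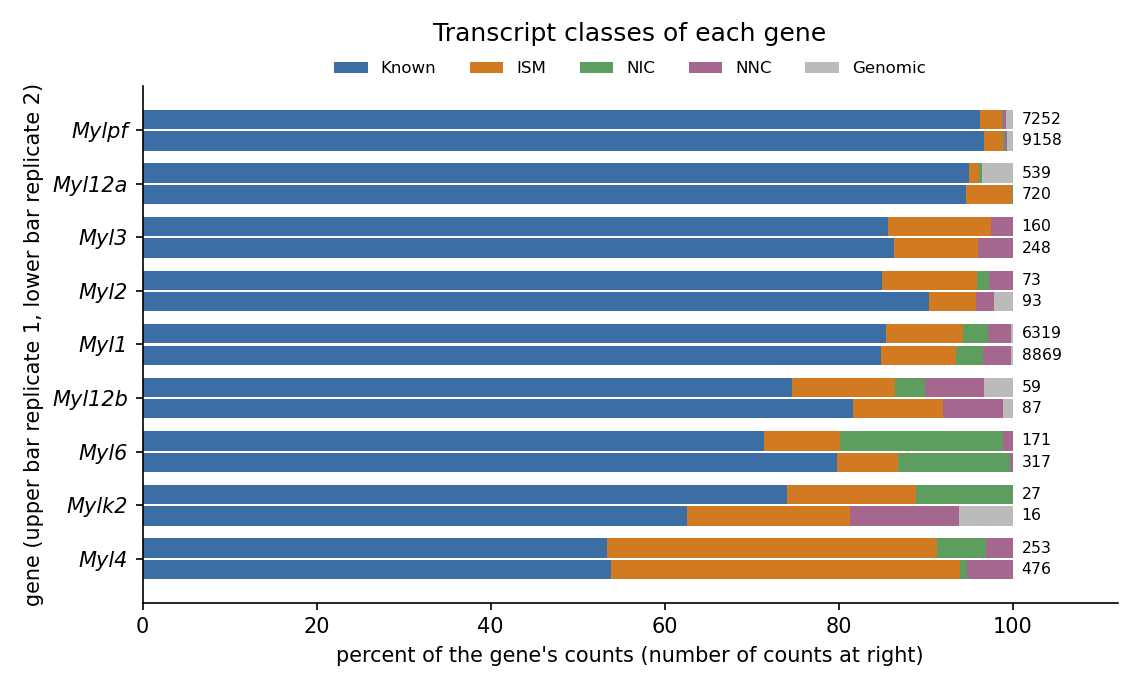
Percent of each gene's counts by transcript class (Known annotated chains, ISM partial chains, NIC new combinations of annotated splice sites, NNC with a splice site outside the annotation, Genomic unspliced) in replicate 1 (upper bars) and replicate 2 (lower bars). Known chains hold over 94% of Mylpf and Myl12a and about 53.4% and 53.8% of Myl4, and NIC chains hold 18.7% and 12.9% of Myl6.

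The partial Myl4 chain begins in the 174-base exon, and so did more than 50% of the spliced partial counts of Myl1 and Myl3. Of spliced ISM counts, 83 of 96 (86.5%, exact 95% interval 78.0 to 92.6) and 180 of 191 (94.2%, 89.9 to 97.1) of Myl4 had their first exon there. For Myl1 it was 312 of 501 (62.3%, 57.9 to 66.5) and 455 of 708 (64.3%, 60.6 to 67.8). For Myl3 it was 10 of 19 and 15 of 24, and for Myl6 it was 5 of 15 and 10 of 22. For Myl6b it was 0 of 2 in each library. Partial Mylpf reads, from a gene without this exon, began most often in the 105-base exon (80 of 184 and 70 of 200). Its 93-base exon followed with 50 and 44 and its 76-base exon with 34 and 56. Model ends are set by the authors' processing, so the exon is known here and the exact base is not. In Myl1, Myl4, Myl3, Myl6 and Mylpf, the exon with the most partial starts is also the longest apart from the first and last exons. The part of exon length was not tested. Whether these reads are broken RNA, partial copies or transcripts was not tested.

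**Figure D5:**
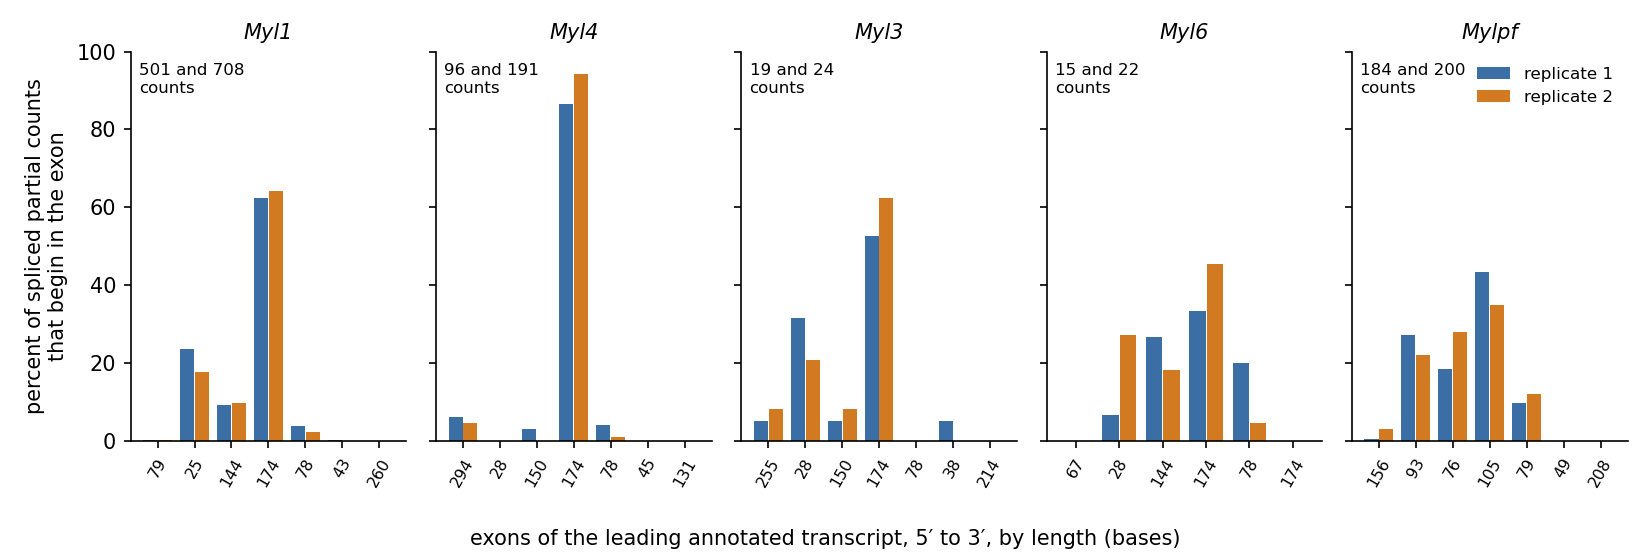
Percent of spliced partial (ISM) counts whose first exon is each exon of the leading annotated transcript, labelled by exon length in bases, for replicates 1 and 2, with the number of counts in each panel. The 174-base exon 4 stands above all others in both libraries in Myl1, Myl4, Myl3 and Myl6, and in Mylpf the 105-base exon leads. In Myl6 the lead in replicate 1 is 5 against 4 of 15 counts, and its last exon also has 174 bases.

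The 174-base exons are printed because partial reads of 4 genes began there. They are coding, from GENCODE M21 on mm10, at chr1:66926534-66926707 (Myl1), chr11:104584439-104584612 (Myl4), chr9:110767908-110768081 (Myl3), chr10:128492229-128492402 (Myl6) and chr10:128495054-128495227 (Myl6b). Capitals mark the bases that are the same in all 5 genes.
Myl1: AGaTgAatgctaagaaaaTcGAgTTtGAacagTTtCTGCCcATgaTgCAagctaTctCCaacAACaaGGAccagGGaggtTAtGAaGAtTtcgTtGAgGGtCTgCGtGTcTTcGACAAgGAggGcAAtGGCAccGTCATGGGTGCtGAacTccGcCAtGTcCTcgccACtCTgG
Myl4: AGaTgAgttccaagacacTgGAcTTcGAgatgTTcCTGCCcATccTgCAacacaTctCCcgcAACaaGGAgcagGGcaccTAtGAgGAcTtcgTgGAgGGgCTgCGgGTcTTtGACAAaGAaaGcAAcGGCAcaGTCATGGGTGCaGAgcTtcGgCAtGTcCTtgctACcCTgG
Myl3: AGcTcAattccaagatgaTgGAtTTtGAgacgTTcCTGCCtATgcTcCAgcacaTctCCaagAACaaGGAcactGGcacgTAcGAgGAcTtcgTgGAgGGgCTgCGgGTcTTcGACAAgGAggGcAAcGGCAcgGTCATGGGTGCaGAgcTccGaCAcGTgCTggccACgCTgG
Myl6: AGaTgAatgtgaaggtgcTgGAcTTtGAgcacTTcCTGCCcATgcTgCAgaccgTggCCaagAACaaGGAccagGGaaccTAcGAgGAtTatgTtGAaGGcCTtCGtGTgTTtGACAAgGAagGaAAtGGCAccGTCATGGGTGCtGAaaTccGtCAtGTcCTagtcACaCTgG
Myl6b: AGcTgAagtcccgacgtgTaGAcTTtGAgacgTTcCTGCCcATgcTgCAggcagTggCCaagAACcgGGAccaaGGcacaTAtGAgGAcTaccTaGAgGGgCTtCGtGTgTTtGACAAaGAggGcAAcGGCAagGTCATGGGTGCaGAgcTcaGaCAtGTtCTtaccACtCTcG
All 5 genes had the same base at 94 of 174 positions, 54.0%. Among pairs, Myl4 and Myl3 were closest, with 140 identical bases (80.5%), and Myl1 and Myl6b farthest, with 122 (70.1%). The longest shared run of capitals lies near the 3′ end, and the partial reads begin at positions that the files do not resolve.

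Myl6 showed its known choice of a last coding exon. The 45-base exon at chr10:128491720-128491764 (minus strand) is skipped in the transcript Myl6-201 and held in Myl6-206. When it is held it brings its own stop codon, and the last exon becomes 3′ UTR. Below, capitals are the coding bases with the stop codon and lower case is UTR.
Myl6 45-base exon: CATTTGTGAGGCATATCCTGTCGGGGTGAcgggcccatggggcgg
Myl6 last exon when skipped: AGCTTGTCCGGATGGTGCTGAATGGCTGA
Both endings have 29 bases with the stop codon, of which 15 are identical, so the proteins have equal length and differ only at their ends. The exon was held in 60 of 155 counts in replicate 1 (38.7%, exact 95% interval 31.0 to 46.9) and 133 of 306 in replicate 2 (43.5%, 37.8 to 49.2), a mean of 41.1 ± 3.36%. The exact test found no call (adjusted p = 1), and the intervals overlap. Both endings were thus frequent, and skipping led in each library.

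A second choice lay at the 5′ end of Myl6. A 20-base exon (chr10:128493334-128493353) was held by 22 of 137 counts (16.1%, 10.3 to 23.3) and 35 of 285 (12.3%, 8.71 to 16.7).
Myl6 20-base exon: ATCTGAGCCCCAAGCGCTGG
It went with the start, a pattern noticed after the values were seen. Of 15 and 23 counts with the upstream first intron (chr10:128493567-128493999), 14 and 21 held the exon, 93.3% (68.1 to 99.8) and 91.3% (72.0 to 98.9). Of 118 and 250 counts with the leading first intron (chr10:128493567-128493808), 7 and 9 did, 5.93% (2.42 to 11.8) and 3.60% (1.66 to 6.72). The chain that joins the upstream start, the 20-base exon and the 45-base exon is outside the annotation and had 10 and 14 counts. NIC chains held 18.7% and 12.9% of Myl6 counts, against 7.30% and 6.52% of all counts. The 45-base exon was held by 11 of 14 and 14 of 23 counts with the upstream start, and by 42 of 114 and 108 of 248 with the leading one. The intervals of these shares overlapped in replicate 2 (38.5 to 80.3 and 37.3 to 49.97) and not in replicate 1 (49.2 to 95.3 and 28.0 to 46.4).

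The 2 regulatory chains of non-muscle myosin lie next to each other on chr17 and are nearly identical in their 199-base and 162-base exons. Within these exons they differ at few bases, shown in capitals for the 162-base exons (mm10, minus strand, chr17:70996110-70996271 for Myl12a and chr17:70975459-70975620 for Myl12b).
Myl12a: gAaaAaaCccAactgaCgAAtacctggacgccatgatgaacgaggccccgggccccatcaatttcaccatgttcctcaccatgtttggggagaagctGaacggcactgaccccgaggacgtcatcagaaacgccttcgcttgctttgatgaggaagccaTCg
Myl12b: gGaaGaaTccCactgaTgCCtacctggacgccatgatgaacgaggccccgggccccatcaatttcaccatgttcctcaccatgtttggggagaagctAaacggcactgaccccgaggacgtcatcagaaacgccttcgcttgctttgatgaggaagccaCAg
They differ at 10 of 162 bases here and at 10 of 199 in the exon before it, and their transcripts align at 96.5% over 550 bases. The leading annotated transcripts are longer than this stretch, with 1937 bases for Myl12a and 2143 for Myl12b. Myl12a held 539 of 598 counts of the pair in replicate 1 (90.1%, exact 95% interval 87.5 to 92.4) and 720 of 807 in replicate 2 (89.2%, 86.9 to 91.3). The leading transcript Myl12a-206 had 454 and 627 counts, and Myl12a-201, which starts at a nearer first exon, had 57 and 52. Its leading first intron was used in 88.3% (85.2 to 91.0) and 91.9% (89.6 to 93.9) of counts with an alternative first intron, with no call (exact test, adjusted p = 1). Over all 1971 genes with such a choice, 0.203% were called. Myl12b-201 had 44 and 71 counts. The second Myl12b identifier (ENSMUSG00000117098.1) had 11 and 9, of which 2 and 2 used the leading first intron of Myl12a. Among chains at 2% or more under the symbol Myl12b, some had all introns inside the Myl12a interval (chr17:70993656-71002878). They held 6 and 0, 1 and 2, and 0 and 2 counts. The shares of the pair above place these with Myl12b, as they do all counts under the second identifier. The other counts under this identifier cannot be given to either gene with certainty.

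Processed pseudogenes close to the members took few counts. Mylf-ps, which aligns to Myl1 at 99.3% over 421 bases, had 4 and 6. The 5 copies of Myl6 at 95.6 to 99.3% identity had 5 and 7 in sum, and the 2 copies of Myl12a and Myl12b had 0.

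Mylk2 was low but mostly whole. Its annotated transcript Mylk2-201 of 2951 bases and 11 introns held 20 of 27 counts (74.1%, exact 95% interval 53.7 to 88.9) and 10 of 16 (62.5%, 35.4 to 84.8). No other chain had more than 2 counts, and none of the unannotated ones was found in both libraries. Its depth does not resolve a difference between the libraries or a minor isoform. Myl6b had no count on a whole annotated chain, and its 2 and 2 partial counts lacked only the first exon.

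Other genes of the pathway came from lists of partners and enzymes. Of 3 further light chains, Myl7, the atrial regulatory chain, had 0 counts in both libraries and Myl10 had 0 and 4. Myl9, the smooth muscle regulatory chain, had 155 and 290 counts and was called higher in replicate 2 (log2 ratio 0.86, exact test, adjusted p = 5.88e-08), close to Myl6. All 6 sarcomeric heavy chains tested were called lower in replicate 2. Myh8, the perinatal heavy chain, had the highest level of them at 6753 and 4144 CPM (log2 ratio -0.70), and Myh2 the lowest at 176 and 99.4 CPM (-0.82). Myh4, a fast adult heavy chain, had the largest difference of the 6, at 2263 and 749 CPM (-1.59). Their median log2 ratio was -0.71, while their light chain partners Myl1 and Mylpf were higher. The heavy chain transcripts are in the length class of 3 kb and over and the light chains in that under 1 kb.

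Of 4 smooth and non-muscle heavy chains, 1 was called lower, Myh10 (36 and 12 counts, log2 ratio -1.59, exact test, adjusted p = 0.00772). Myh14, with 33 and 15 counts, had the lowest mean level of the list and Myh9, with 40 and 34 counts, the highest. None of the 3 other light chain kinases was called. Mylk4 had 23 and 21 counts, Mylk, the smooth muscle kinase, 14 and 13, and Mylk3, the cardiac kinase, 9 and 6. Each was thus near Mylk2 or below it in counts. Of 8 genes of myosin phosphatase and its control, which removes the phosphate, 1 was called lower, the targeting subunit Ppp1r12c (130 and 80 counts, log2 ratio -0.74, exact test, adjusted p = 0.00614). The catalytic subunit Ppp1cb was the highest of them, with 276 and 264 counts, and the inhibitor Ppp1r14a the lowest, with 7 and 4.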

How the data were processed

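Long-read RNA sequencing was run on 2 replicates of 1 group, so no condition was compared. The deposited tables hold read counts per transcript model, made by the authors with TALON classes (Known, ISM, NIC, NNC, Genomic) on mm10 with GENCODE M21, per the file headers; the aligner is not given in the sources used here. Counts were summed per gene and scaled to annotated mouse gene counts (CPM). Introns and exons came from the paired models. Libraries were compared by Fisher's exact test with Benjamini-Hochberg adjustment over all genes with at least 10 counts in sum and all exons with at least 20 counts in each library (Python 3.11.15, SciPy 1.17.1), with edgeR 4.0.16 and DESeq2 1.42.0 as alternatives. The test was checked on simulated data. Exact (Clopper-Pearson) intervals are at 95% and cover counting error only. The rule written for Myl1 starts, alternative first introns, leaves out the long form's own first intron, because another annotated transcript holds it internally; introns held only by transcripts of 1 start are reported in its place. All members are described by rule. Of each pathway list, the counts called and the genes highest and lowest by mean level are given; further genes of the lists were named after their values were seen. Members and lists were chosen with earlier results of these data known. One pathway list is not reported here.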

Additional observations from a re-analysis of the deposited data

Results flagged for a closer look

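Reads on the strand opposite to Myl1, within its gene body, had 18 counts in replicate 1 and 30 counts in replicate 2. They lie outside the gene's own measurement and exceed the limit of 3 counts that a count of 0 allows. They equal 0.285% and 0.338% of the Myl1 counts. Over Mylk2 there were 6 and 3 such counts, and over Myl4 0 and 5.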

How the results depend on the processing

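Of 110 alternatives, 84 counted as the same, 24 moved a value and 2 weakened a count. Alternatives that left out 1 library are among the 84, and the way they were scored could give no other outcome. They therefore say nothing about how firm a result is. The 6 members called stayed 6 with TMM or DESeq2 scaling, with minimums of 1 or 50 counts and without ISM and Genomic transcripts. The share of all genes tested that was called was 9.74% in the main setting, 9.66% with TMM and 9.33% with DESeq2 scaling. It was 5.05% and 18.3% with minimums of 1 and 50 counts, and 10.1% without ISM and Genomic transcripts. By edgeR's exact test, 2 members were called with a biological coefficient of variation of 0.1 and 0 with 0.2. Of all genes, 1.56% and 0.508% were called at these settings. The summed level of the members was 17175 CPM, 34303 per length of the longest annotated transcript detected and 36542 per length of the leading one, a scale added after the data were seen. The long Myl1 share was 0.728% by the first-intron rule and 31.6% by introns of 1 start only. Without ISM and Genomic transcripts, Myl4 held 2.96% of essential counts (4.36% with all classes), Myl1 94.6% (93.1%), Myl2 0.938% of Mylpf and Myl2 counts (1.00%) and Myl12a 90.5% of its pair (89.7%). No paired analysis was possible because the series has 1 group. With 1 library left there is no comparison, and Mylk2 and Myl6b are limited by their few counts.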
